A study of Mus musculus with 12 samples.

Results

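The late step of dormancy in wild-type mouse embryonic stem (ES) cells, from 72 to 144 h of mTOR inhibition, was described from 4 of the 12 RNA-seq libraries in the series. These are the 2 libraries labelled E14 KH at 72 hours and the 2 labelled E14 KH at 144 hours, all from KH cells kept in INK128, which blocks mTOR kinase activity (mTORi). The 2 libraries of untreated KH cells (0 h) served to tell a change that begins after 72 h from one already under way. The 4 libraries of DNMT3ABKO cells at 72 and 144 h of the same treatment gave the same step in libraries shared with no KH group, from a line in which Dnmt3a and Dnmt3b, the enzymes of de novo DNA methylation, are knocked out. The study profiled dormancy over time on the ground that a stable dormant state may need days to form.

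Several features limit these groups as models. Each genotype is represented by 1 line, the labels put E14 before both lines while the methods call the wild-type line KH2, and no untreated culture was sampled at 72 or 144 h, so treatment and days in culture cannot be told apart. Per the methods, KH2 and Dnmt3a/b knockout cells grew on feeders, a layer of growth-arrested fibroblasts, and viable single cells were sorted for RNA. The study's reporting summary says in general that experiments were independently repeated, but the labels, which number 2 replicates in each group, do not say that these were separate cultures. P-values then measure only the spread between these samples, which may be technical.

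mTOR kinase couples nutrient and growth factor supply to the making of proteins, lipids and ribosomes. Its inhibition slows ES cells into a reversible pause that resembles diapause, the arrest of the blastocyst before implantation. Paused cells keep the pluripotency network while anabolic metabolism and cell division are held down, and TFE3 and TFEB, factors that mTOR keeps out of the nucleus, can activate lysosomal genes.

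Values are TPM, which give the share of a gene in each library's RNA after correction for length. A difference is that of log2(TPM + 1) between 144 and 72 h and is written with its standard error (SE). All differences and adjusted p-values come from limma fitted over 15401 genes, 28.3% of the 54446 listed, whose mean over these libraries reached 1 TPM. At the edge of this filter lay Slc6a9, kept with a mean of 1.000735 TPM, and Gm23108, left out with 0.999362 TPM. TPM does not retain depth or total RNA per cell, so the read depth is unknown and a gene that rose is one whose share rose.

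The 4 libraries resembled each other closely. Between 15195 and 15507 genes reached 1 TPM in each, and replicates correlated with r of 0.995 at 72 h and 0.994 at 144 h over the tested genes, which are not independent replicates. All 19 ES cell markers were above 1 TPM in all 4 libraries, the lowest value being 92.9 TPM for Gdf3. Markers of fibroblasts and macrophages were also present, and they are described first because they held the steepest falls. Between DNMT3ABKO and KH libraries the targeted genes differed as labelled, with Dnmt3a at 7.35 to 21.9 TPM against 54.7 to 143.6 TPM and Dnmt3b at 12.7 to 27.5 TPM against 142 to 258 TPM. The DNMT3ABKO libraries at 0 h differed from each other more than other pairs (r of 0.985).

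Between 72 and 144 h more genes fell than rose. Of the 15401 genes, 1100 were called higher at 144 h (7.14%) and 2360 lower (15.3%) at an adjusted p under 0.05, and the median difference over all genes was -0.04. Higher genes made up 31.8% of those called, and 44.4% when each library was rescaled by its median ratio. Large differences were rarer, with 77 called genes higher and 374 lower by at least 1 on the log2 scale, and 3 higher and 74 lower by at least 2. In all 3460 called genes both 144 h libraries lay beyond both 72 h libraries, which was the case for 70.3% of all genes tested. Without any 1 of the 4 libraries, 481 to 581 genes were called higher and 1162 to 1379 lower.

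The steepest falls were those of macrophage, fibroblast and smooth muscle genes. Of 17 macrophage markers tested, 16 were lower at 144 h and none was higher, with a median difference of -2.34. Lyz2, the macrophage lysozyme, went from 104.4 and 104.5 TPM at 72 h to 4.21 and 3.66 TPM at 144 h, a difference of -4.42 ± 0.08 (adjusted p = 1.6e-09). C1qa, a subunit of complement C1q, stood at 8.71 and 8.52 TPM and then at 0.292 and 0.149 TPM. The groups were far apart for both genes, and 15 of the 20 listed macrophage genes were under 1 TPM in both 144 h libraries. Lyz1, Tyrobp, C1qb, Aif1 and Cx3cr1 were at 0 in at least 1 of them. Those of the 15 that were tested reached the filter only through the 72 h libraries, where they were higher.

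Fibroblast genes fell almost as uniformly. Of 27 tested, 25 were lower and none was called higher (median -1.41). Col1a1, the main chain of type I collagen, decreased from 79.4 and 73.2 TPM to 10.7 and 8.63 TPM (-2.86 ± 0.12, adjusted p = 3.7e-07). Lox, which cross-links collagen, decreased from 105 TPM in both 72 h libraries to 10.1 and 10.5 TPM. S100a4, a calcium-binding protein of fibroblasts, decreased from 52.7 and 55.5 TPM to 9.17 and 6.33 TPM. These genes were already lower at 72 h than at 0 h, where Col1a1 had stood at 372 and 366 TPM.

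Genes of smooth muscle and targets of serum response factor (SRF) split. Among 16 tested, 10 were lower, led by Acta2 (smooth muscle actin), which went from 241 and 230 TPM to 28.5 and 29.1 TPM, and by Actg2, which went from 15.8 and 18.0 TPM to 0.965 and 2.24 TPM. Tagln, another contractile protein, decreased by 2.13 ± 0.09. Srf itself was higher (0.57 ± 0.08, adjusted p = 0.00065), as were Smtn (0.32) and Vcl (0.31), both tied to the actin cytoskeleton. Smtn was not called without KH 144 h replicate 1 (0.31, adjusted p = 0.051) or KH 72 h replicate 2 (0.30, adjusted p = 0.054), and Vcl was not called without any 1 of the 4 libraries (0.27 to 0.34, adjusted p = 0.11 to 0.21).

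Summed over each list, macrophage markers held 290 and 282 TPM at 72 h against 43.7 and 42.6 TPM at 144 h, and fibroblast markers 2027 and 1980 TPM against 1003 and 902 TPM. Summed smooth muscle and SRF genes held 1508 and 1487 TPM against 914 and 903 TPM. In bulk samples, fewer cells of a type and less RNA per cell cannot be told apart, and the part that such cells have in the other falls described here was not tested. General pluripotency genes summed to 7303 and 7190 TPM at 72 h and to 7629 and 7556 TPM at 144 h. Of other lineages, primitive endoderm markers had 5 of 9 lower and none higher, led by the basement membrane collagens Col4a2 (-1.48) and Col4a1 (-1.23), which fibroblasts also make. Trophoblast markers had 1 of 9 lower and none higher, and the share lower lies near the 15.3% of all genes. Their median difference was 0.05, and 0.02 to 0.11 without any 1 of the 4 libraries.

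**Figure D1:**
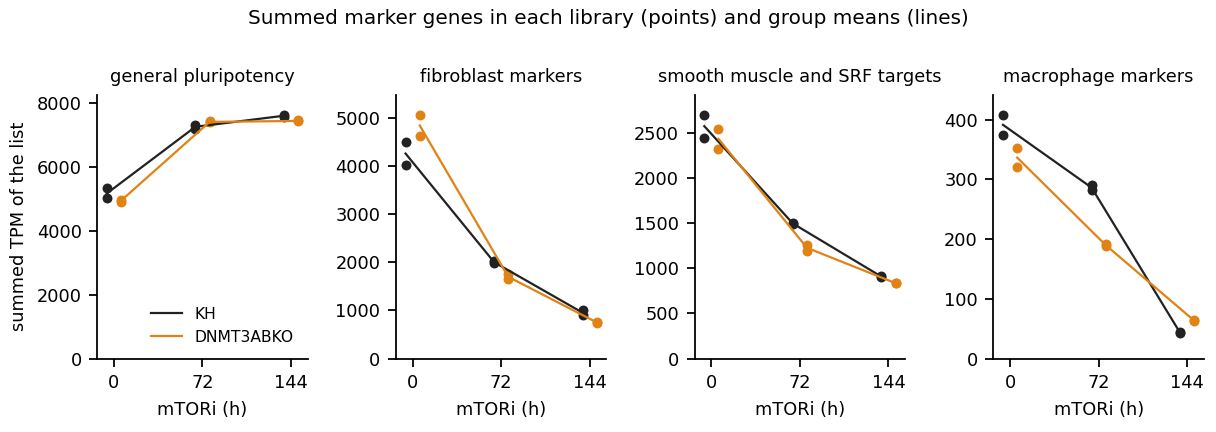
Summed TPM of 4 gene lists in each library (points) at 0, 72 and 144 h of mTORi, with lines through the means of 2 libraries for KH and DNMT3ABKO cells. In KH cells pluripotency genes stay at 7190 TPM or more from 72 h, while macrophage genes drop from at least 282 TPM at 72 h to at most 43.7 TPM at 144 h.

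To find what changed chiefly after 72 h, genes were selected whose late step was called and differed from the earlier step. The late and the early step (0 to 72 h) share the 72 h libraries. They differed in 4561 genes (29.6%) at an adjusted p under 0.05. Late-onset genes also had to change by less than 0.5 in log2 from 0 to 72 h, and both 144 h libraries had to lie beyond all 4 earlier KH libraries. This left 236 genes higher at 144 h (1.53%) and 496 lower (3.22%). These values chose the genes and are given as a description. Without KH 72 h replicate 1 there were 86 and 176 such genes, and without KH 72 h replicate 2 there were 75 and 191. The bound on the early change kept Nagk (0.4987) and left out Mks1 (0.5022). Smaller early changes were allowed, with a median of -0.18 in the higher and 0.16 in the lower genes. Some were called, as in Tyrobp (-0.46, adjusted p = 0.02), Sall2 (-0.39, adjusted p = 0.011) and Mpeg1 (0.34, adjusted p = 0.016). Lower late-onset genes had a median level of 7.19 TPM and 95% were protein-coding, against 12.9 TPM and 79.6% over all tested genes. Higher ones had a median of 13.4 TPM and 84.7% were protein-coding.

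The highest late-onset genes included several developmental regulators. A2m, the protease inhibitor alpha-2-macroglobulin on chromosome 6 (mm10, 121635376 to 121679227), stood at 0.309 and 0.369 TPM at 0 h, 0.836 and 0.856 TPM at 72 h and 5.57 and 5.21 TPM at 144 h (1.79 ± 0.12). Olig3, a factor of dorsal neural progenitors on chromosome 10 (19356533 to 19358604), stood at 0.482 and 0.499 TPM, then 0.36 and 0.435 TPM, then 3.57 and 3.04 TPM (1.62 ± 0.13). Hoxb1, the homeobox gene of the hindbrain on chromosome 11 (96365752 to 96368256), stood at 0.0542 and 0.209 TPM, then 0.0866 and 0.151 TPM, then 1.98 and 2.13 TPM (1.45 ± 0.14). A2m was already higher at 72 h than at 0 h (0.46, adjusted p = 0.011). For Olig3 and Hoxb1 the 0 and 72 h libraries were all below 1 TPM and the 144 h libraries stood out, at low levels.

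Prtg and Actn3 rose from higher baselines. Prtg, a receptor of the early neural tube, was at 6.98 and 7.74 TPM at 0 h, 6.78 and 6.58 TPM at 72 h and 18.8 and 16.4 TPM at 144 h (1.27 ± 0.11). Actn3, an alpha-actinin known from fast muscle fibres, was at 9.43 and 9.22 TPM, then 8.06 and 8.84 TPM, then 22.8 and 22.6 TPM (1.33 ± 0.07). Also among the 10 highest were Sec14l5 (1.42), Zscan4e (1.36), the heparan sulfate sulfotransferase Hs3st3b1 (1.23) and the phosphoglucomutase Pgm2 (1.17). Zscan4e has near-identical paralogs, so its reads may be split among copies.

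The lowest late-onset genes were mostly genes of macrophages. Gpnmb, a membrane glycoprotein of macrophage lysosomes on chromosome 6 (49036546 to 49070929), was at 18.0 and 19.7 TPM at 0 h, 19 TPM in both libraries at 72 h and 1.13 TPM in both at 144 h (-3.23 ± 0.09). Cd14, a co-receptor for bacterial lipopolysaccharide, was at 13.3 and 14.8 TPM, then 18.6 and 16.2 TPM, then 0.711 and 0.567 TPM (-3.49 ± 0.11). Thus Gpnmb was level and Cd14 higher at 72 h than at 0 h, and both were near 1 TPM or below at 144 h. The myeloid adaptor Tyrobp (-3.43), cathepsin S (Ctss, -3.35), the pore-forming protein Mpeg1 (-2.97) and the lectin receptors Clec4d (-2.75) and Clec4n (-2.42) completed this set. C1qtnf3 (-2.66) and the pentraxin Ptx3 (-2.40) were also among the 10 lowest.

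The median change of macrophage markers was -0.36 from 0 to 72 h and -2.34 from 72 to 144 h, and 7 of the 17 were late-onset genes. For fibroblast markers the medians were -1.17 and -1.41, and 1 of 27 was a late-onset gene, near the 3.22% of all genes that were late onset and lower. The step difference was called in 14 genes of each list, against 29.6% of all genes.

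**Figure D2:**
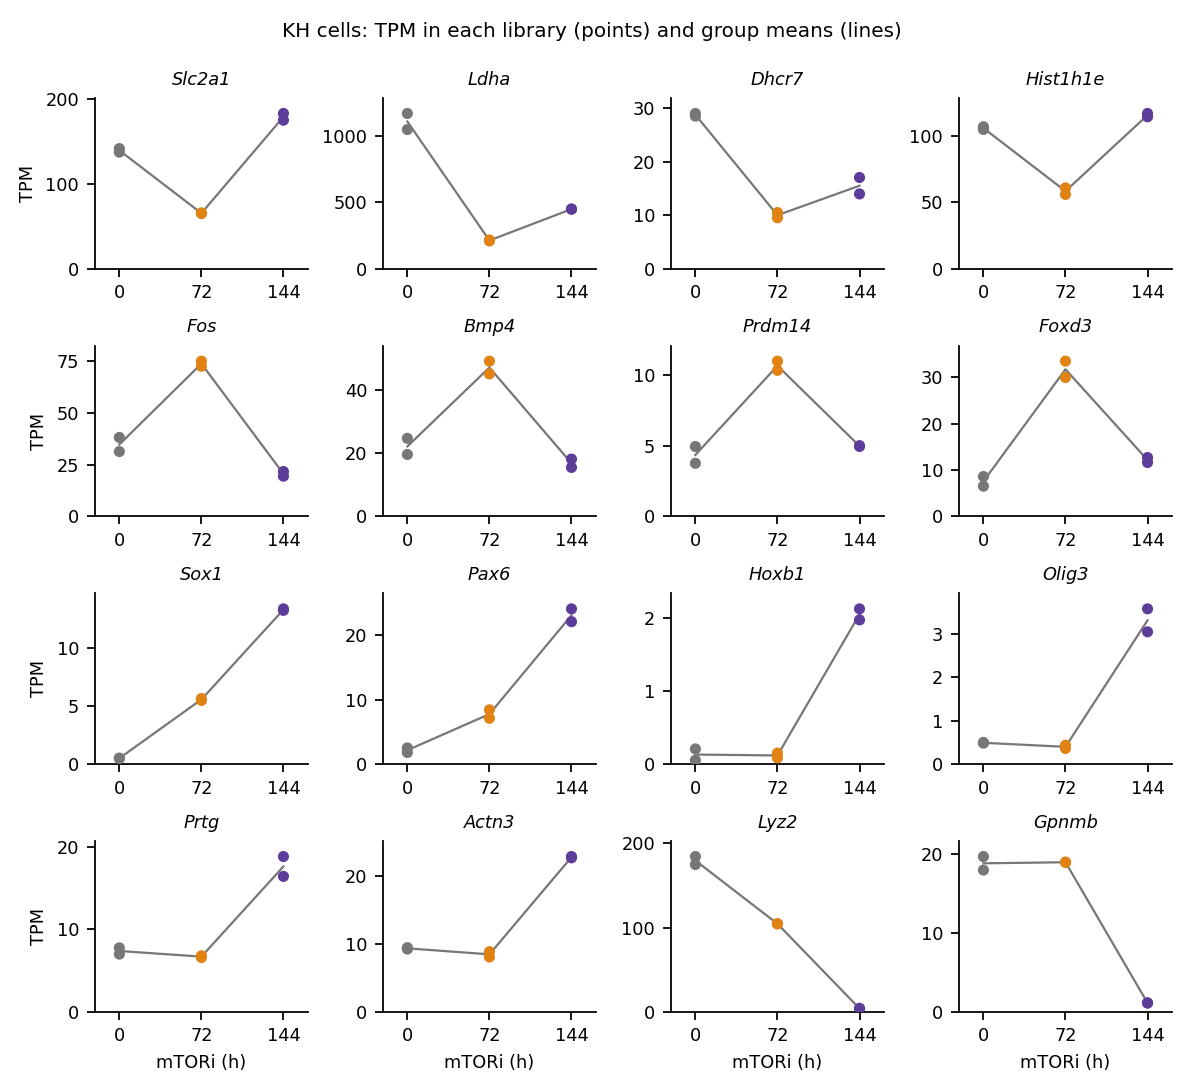
TPM of 16 genes in each KH library (points) at 0, 72 and 144 h of mTORi, with lines through the means of 2 libraries; each panel has its own axis from 0. Hoxb1, Olig3, Prtg and Actn3 stay level to 72 h and are higher at 144 h, Gpnmb stays level and then drops to 1.13 TPM, and Slc2a1 dips at 72 h and rises to 175 and 182.5 TPM.

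Outside the late-onset genes, the highest differences were those of Ndufa4l2 and Stra8. Ndufa4l2, a mitochondrial protein known to be induced by hypoxia, was at 0.0929 and 0.303 TPM at 72 h and at 4.23 and 4.71 TPM at 144 h (2.19 ± 0.16, adjusted p = 8.5e-06). Stra8, which starts meiosis in germ cells and responds to retinoic acid, was at 3.07 and 3.47 TPM and then at 18.0 and 18.8 TPM (2.19 ± 0.12, adjusted p = 1.7e-06). Greb1l (1.85), the arginine methyltransferase Prmt8 (1.66), the histone gene Hist1h2aa (1.55), Zscan4f (1.48) and Pax6 (1.46) followed.

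Glycolysis, the breakdown of glucose to pyruvate and lactate, was the metabolic pathway in which the largest number of genes was called higher. Of 22 genes, 16 were higher and 2 lower, with a median difference of 0.42 against -0.04 over all genes. Only 1 of them met the late-onset definition, because most had fallen first. The list's median change was -0.68 from 0 to 72 h and -0.09 from 0 to 144 h.

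By role in the pathway, Slc2a1, the main glucose transporter of ES cells, rose most, from 65.7 and 64.8 TPM at 72 h to 175 and 182.5 TPM at 144 h (1.44 ± 0.06, adjusted p = 3.8e-07). At 0 h it had stood at 137 and 141 TPM, so both 144 h libraries were above all earlier ones. The triose phosphate isomerase Tpi1 rose from 93.1 TPM in both libraries to 196 and 207.5 TPM (1.11 ± 0.06), and the aldolase Aldoc from 1.76 and 2.14 TPM to 5.74 and 5.34 TPM (1.15 ± 0.19). Ldha, the lactate dehydrogenase that makes lactate from pyruvate, rose from 216 and 209 TPM to 447 and 449 TPM (1.07 ± 0.07), below its 1045 and 1166 TPM at 0 h. The other direction was taken by isoforms of 2 early steps. Hexokinase Hk1 went from 14.2 and 14.9 TPM to 9.61 and 9.41 TPM (-0.56 ± 0.08), and the muscle phosphofructokinase Pfkm decreased by 0.45 ± 0.10. Without KH 144 h replicate 1 or KH 72 h replicate 1, Pfkm was not called (-0.41 in each, adjusted p = 0.064 and 0.071).

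**Figure D3:**
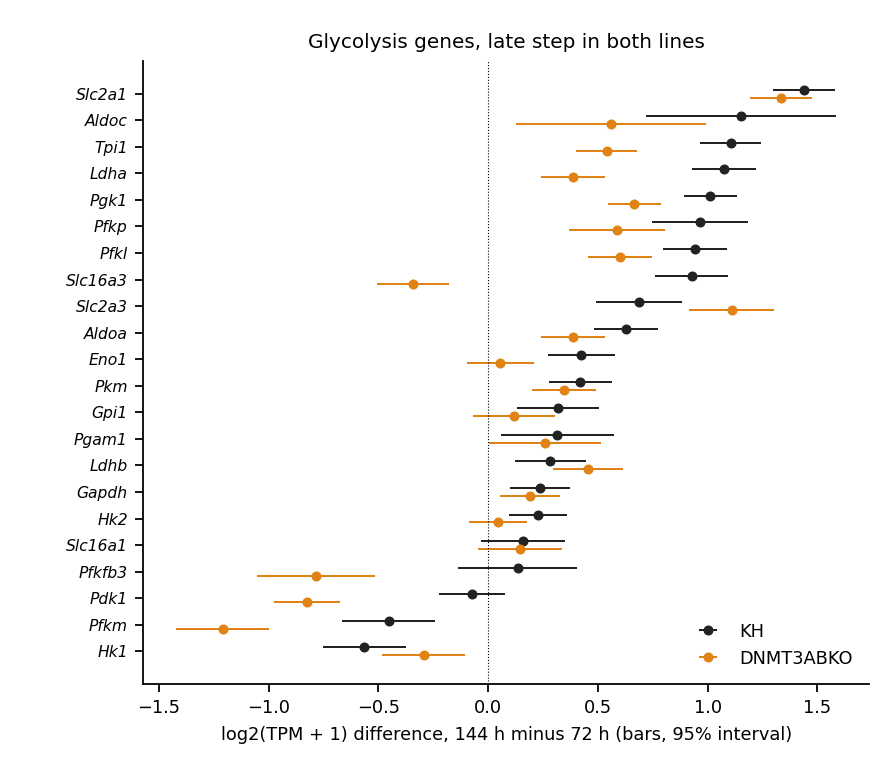
Difference in log2(TPM + 1) between 144 and 72 h for 22 glycolysis genes in KH and DNMT3ABKO cells, with 95% intervals from the limma fit. In KH cells 16 genes lie above 0 and are called, led by Slc2a1 (1.44), and Hk1 (-0.56) and Pfkm (-0.45) lie below.

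Promoters of the called glycolysis genes were read for CACGTG, the E-box bound by Myc and TFE3, on either strand. In RefSeq's table of promoters (GRCm38.p6, 250 bases before to 50 after a start), 15 of the 16 had an entry and 1 (6.67%) held CACGTG, against 12.1% of 9934 tested genes with an entry and 8.09% of all genes in the table. That gene was Ldha. It is shown, with the motif in capitals, beside the promoter of Slc2a1, which rose most and lacks these letters; both are on the plus strand, at chr7:46845554-46845853 and chr4:119108495-119108794.
Ldha: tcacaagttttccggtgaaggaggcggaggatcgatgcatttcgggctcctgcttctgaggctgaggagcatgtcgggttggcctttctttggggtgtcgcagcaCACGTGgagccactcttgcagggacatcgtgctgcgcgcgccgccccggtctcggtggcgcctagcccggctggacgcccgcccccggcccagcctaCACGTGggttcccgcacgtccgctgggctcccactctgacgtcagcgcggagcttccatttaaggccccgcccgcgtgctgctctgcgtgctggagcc
Slc2a1: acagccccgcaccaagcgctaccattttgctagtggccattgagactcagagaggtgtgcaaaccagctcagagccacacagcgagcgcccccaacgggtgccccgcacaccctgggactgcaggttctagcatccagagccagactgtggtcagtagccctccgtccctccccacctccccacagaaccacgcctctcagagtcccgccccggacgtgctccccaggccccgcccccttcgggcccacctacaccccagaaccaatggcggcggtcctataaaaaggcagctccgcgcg
Among late-onset genes with an entry, CACGTG was in 9.85% of 132 higher and 10.6% of 379 lower genes. TATAAA was in 8.33% and 9.23% (8.55% of tested genes), CCAAT in 42.4% and 39.1% (43.9%), and GGGCGG, the core of the GC box, in 76.5% and 66.2% (70.2%). Entries were lacking for many genes, and a match is a description of these letters only.

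A mixed list of oxidative stress and hypoxia genes moved in both directions. Of its 18 genes, 2 were higher and 6 lower, against 7.14% and 15.3% of all genes. These counts are not those of hypoxia genes alone. The higher genes were Bnip3, a mitophagy receptor, which went from 21.8 and 21 TPM to 46.4 and 45.4 TPM (1.07 ± 0.16), and Egln3, a prolyl hydroxylase that marks hypoxia-inducible factors, which went from 5.86 and 5.53 TPM to 12.2 and 11.7 TPM (0.95 ± 0.14). Both were late-onset genes. Nqo1, a target of the antioxidant factor NRF2, was the lowest, at 15 and 15.4 TPM and then 7.36 and 7.45 TPM (-0.95 ± 0.14). With median-ratio rescaling 7 genes of this list were called higher and 5 lower, and without any 1 of the 4 libraries 2 were called in each direction.

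Part of lipid synthesis was called higher. Of 22 genes of sterol synthesis and uptake, 11 were higher and none lower (median 0.34). Dhcr7, the last enzyme of cholesterol synthesis, was at 10.5 and 9.53 TPM at 72 h and at 17.1 and 14 TPM at 144 h (0.58 ± 0.11), and Cyp51, the lanosterol demethylase, rose by 0.73 ± 0.12. This list had a median change of -0.81 from 0 to 72 h, and none of its genes was late onset. In fatty acid synthesis 7 of 14 genes were higher, among them the desaturase Scd2 (64.7 and 64.2 TPM, then 108.5 and 105 TPM), and none was lower. Fatty acid oxidation showed the reverse count, with 6 of 15 lower and none higher. The pyruvate dehydrogenase kinase gene Pdk4 decreased by 0.79 ± 0.14, and the mitochondrial thiolase Acaa2 by 0.69 ± 0.10. Without any 1 of the 4 libraries, 5 to 7 sterol genes and 1 to 5 fatty acid synthesis genes were called higher and 4 to 6 fatty acid oxidation genes lower.

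Targets of ATF4, the factor that raises amino acid synthesis and is itself promoted by mTOR, showed 9 of 23 genes higher and 2 lower (median 0.27, after -1.08 from 0 to 72 h). Mthfd2, an enzyme of mitochondrial folate metabolism, rose from 18.6 and 17.3 TPM to 30.1 and 32.1 TPM (0.76 ± 0.10), well under its 95.1 and 108 TPM at 0 h. Psat1, of serine synthesis, rose by 0.66 ± 0.08, and Sesn2 and Ddit4, which restrain mTOR, by 0.81 ± 0.09 and 0.64 ± 0.10. Nupr1, a stress-induced chromatin protein, took the opposite course, at 7.93 and 8.97 TPM and then 2.54 and 3.78 TPM (-1.20 ± 0.15). Slc3a2, a subunit of amino acid transporters, decreased by 0.45 ± 0.06. The count of higher ATF4 targets was 5 without KH 144 h replicate 1 or KH 72 h replicate 2, and 6 without KH 144 h replicate 2.

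Ribosomal protein and oxidative phosphorylation genes held few calls in the fit of all libraries. Of 51 cytosolic ribosomal protein genes, 1 was called (Rpl36, 0.26 ± 0.08, adjusted p = 0.035), and the list ran from -0.08 to 0.26. Rpl36 was not called without any 1 of the 4 libraries (0.20 to 0.32, adjusted p = 0.066 to 0.23), and rescaling called 6 members of the list higher. Of 39 nuclear oxidative phosphorylation genes, 0 were called by limma (2 at an unadjusted p under 0.05), and of 13 mitochondrial genome transcripts 0 were called (0 at an unadjusted p under 0.05). All 13 of the latter were below 0 (median -0.25). With only the 4 libraries in the fit, 6 and 9 members of these lists were called lower. The fit of all libraries includes the DNMT3ABKO pair at 0 h, with 0.747% and 2.105% of TPM from mitochondrial transcripts. The part of that pair in the missing calls was not tested. Transcripts of Mtor (0.06 ± 0.08), Tfe3 (0.01 ± 0.12) and Tfeb (-0.10 ± 0.08) were not called. Of 25 genes of mTOR complexes and regulators, 5 were higher and 1 was lower, against 7.14% and 15.3% of all genes. The higher ones included Sesn2, Ddit4 and Eif4ebp1 (0.45 ± 0.09), and rescaling called 8 members higher. Among 32 lysosomal genes 2 were higher, cathepsin L (Ctsl, 0.47) and the folliculin gene Flcn (0.40), and 6 were lower, including Gpnmb and cathepsin B (Ctsb, -0.74 ± 0.09). Both shares lie near the 7.14% and 15.3% called over all genes. Macrophages are rich in Gpnmb and Ctsb as well. Rescaling called 7 lysosomal genes higher, and without any 1 of the 4 libraries 3 or 4 were lower.

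Replication-dependent histone genes, which are transcribed in S phase and lack poly(A) tails, were called higher in 20 of 29 cases and lower in 1 (median 0.45), with 13 to 18 higher without any 1 of the 4 libraries, the lowest count being that without KH 72 h replicate 2. The linker histone gene Hist1h1e went from 60.8 and 55.9 TPM to 114 and 117 TPM (0.97 ± 0.08, adjusted p = 2.1e-05), and Hist2h4 from 59.3 and 53.2 TPM to 97.2 and 93.6 TPM (0.75 ± 0.07). Hist2h2be was the lower one (-0.56) and was not called without any 1 of the 4 libraries (-0.55 to -0.57, adjusted p = 0.086 to 0.11). Copies of these genes are similar, so reads may be split among them. Of the 29, 9 were late-onset genes. Among genes of DNA replication 3 of 34 were higher and none lower (median 0.01), and without any 1 of the 4 libraries none was called higher. The share of replication genes called higher lies near the 7.14% of all genes. In mitosis 6 of 28 were higher, among them the kinase gene Aurka (0.38 ± 0.06), and none lower. Rescaling called 12 mitosis genes higher, and without any 1 of the 4 libraries 1 to 4 were called higher.

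Among 22 genes of G1 cyclins and CDK inhibitors, 3 were lower, a share near the 15.3% of all genes called lower, and none was higher. Cdkn2b, which inhibits CDK4 and CDK6, was at 7.2 and 6.58 TPM and then 2.11 and 2.16 TPM (-1.33 ± 0.11), and Cdkn1a, the p21 inhibitor, was at 43.1 and 40.5 TPM and then 26.1 and 23.1 TPM (-0.74 ± 0.08). Cdkn1b (-0.20 ± 0.08, adjusted p = 0.12) and Ccnd1 (-0.10 ± 0.07) were not called, and Cdkn1b was called lower with only the 4 libraries in the fit (adjusted p = 0.03). Myc decreased by 0.58 ± 0.06, from 122.5 and 117 TPM to 81.8 and 78.3 TPM, and Mycn (0.14 ± 0.06) was not called except with rescaling (0.19, adjusted p = 0.0496).

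Core pluripotency genes were mostly not called. Pou5f1 was at 1132 and 1106 TPM at 72 h and at 1100 and 1099 TPM at 144 h, a difference of -0.02 with a 95% interval of -0.17 to 0.12. Sox2 (0.08 ± 0.11), Nanog (-0.15 ± 0.11), Esrrb (-0.16 ± 0.09), Zfp42 (-0.07 ± 0.07) and Klf4 (-0.38 ± 0.13, adjusted p = 0.057) were not called. Klf4 was called lower with rescaling (-0.33, adjusted p = 0.023), with only the KH libraries (adjusted p = 0.011), with only the 4 libraries (adjusted p = 0.0015) and with the replicate number as a block (adjusted p = 0.049). Nanog was called lower only with the 4 libraries in the fit (adjusted p = 0.016). Of 15 general pluripotency genes 2 were higher, Epcam (0.41 ± 0.08) and Cdh1 (0.34 ± 0.08), which both serve cell adhesion. Cdh1 was not called without KH 144 h replicate 1, KH 72 h replicate 1 or KH 72 h replicate 2 (0.31 to 0.36, adjusted p = 0.064 to 0.096).

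Among 17 naive pluripotency genes 6 were lower and none higher. Prdm14, a repressor that guards the naive state, had been at 3.76 and 4.95 TPM at 0 h, was at 10.3 and 11 TPM at 72 h and returned to 5.01 and 4.96 TPM (-0.96 ± 0.12, adjusted p = 0.00036). Socs3, the feedback inhibitor of LIF signalling, went from 113 and 106 TPM to 64.8 and 63.5 TPM (-0.76 ± 0.07). Without any 1 of the 4 libraries, 2 or 3 naive genes were called lower.

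Genes of the formative and primed epiblast split by member, with 9 of 18 higher and 5 lower. Sall2, a zinc-finger factor, rose from 4.11 and 4.16 TPM to 9.15 and 9.43 TPM (1.00 ± 0.10), Sox3 from 3.93 and 4.73 TPM to 9.35 and 9.08 TPM (0.94 ± 0.10) and Zic2 from 48.1 and 47.5 TPM to 87.8 and 87.9 TPM (0.86 ± 0.09). Foxd3, a factor needed at the exit from naive pluripotency, had risen from 6.52 and 8.60 TPM at 0 h to 33.4 and 29.9 TPM at 72 h and was at 12.7 and 11.6 TPM at 144 h (-1.31 ± 0.12). Grhl2, a factor of epithelial enhancers, decreased by 0.79 ± 0.11. Without KH 72 h replicate 1 the list had 2 lower genes.

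Early neural genes were called higher in 6 of 9 measured cases and lower in 1, against 7.14% and 15.3% of all genes. The other 11 of the 20 listed were under the filter. Hes5, 1 of the 6, was at 0.352 and 0.191 TPM at 72 h and at 1.52 and 1.985 TPM at 144 h. It passed the filter only through the 144 h libraries. Pax6, a regulator of the neural plate and eye, was at 1.80 and 2.51 TPM at 0 h, 7.09 and 8.40 TPM at 72 h and 22 and 24 TPM at 144 h (1.46 ± 0.17). Sox1, a marker of neural progenitors, was at 0.492 and 0.521 TPM, then 5.66 and 5.50 TPM, then 13.3 and 13.4 TPM (1.12 ± 0.10). Thus Pax6 and Sox1 were higher at each later time and are not late onset. The Notch target Hes5 (1.11 ± 0.18) and the intermediate filament Nes (0.80 ± 0.09) rose after lower values at 72 h than at 0 h. Olig2 was the lower one (-0.64 ± 0.14) and was not called without KH 144 h replicate 1, KH 144 h replicate 2 or KH 72 h replicate 1 (-0.60 to -0.64, adjusted p = 0.053 to 0.075).

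Retinoic acid, which patterns the hindbrain and induces Hox genes, had 5 of 12 of its genes higher and 2 lower. Over all genes 7.14% were higher and 15.3% lower, and the share lower lies near the latter. Of the 12, 5 were late onset. Hoxb1, under 1 TPM in both 72 h libraries, passed the filter only through the 144 h libraries. Beside Hoxb1, Meis2, a cofactor of Hox proteins, rose from 4.64 and 4.59 TPM to 12.3 and 11.8 TPM (1.22 ± 0.15). Crabp1, a binding protein for retinoic acid, rose by 0.84 ± 0.10. Dhrs3, which limits retinoic acid by reducing retinal, was lower at 2.46 and 1.91 TPM after 6.04 and 5.50 TPM (-1.09 ± 0.20), and the receptor Rxra decreased by 0.55 ± 0.08.

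**Figure D4:**
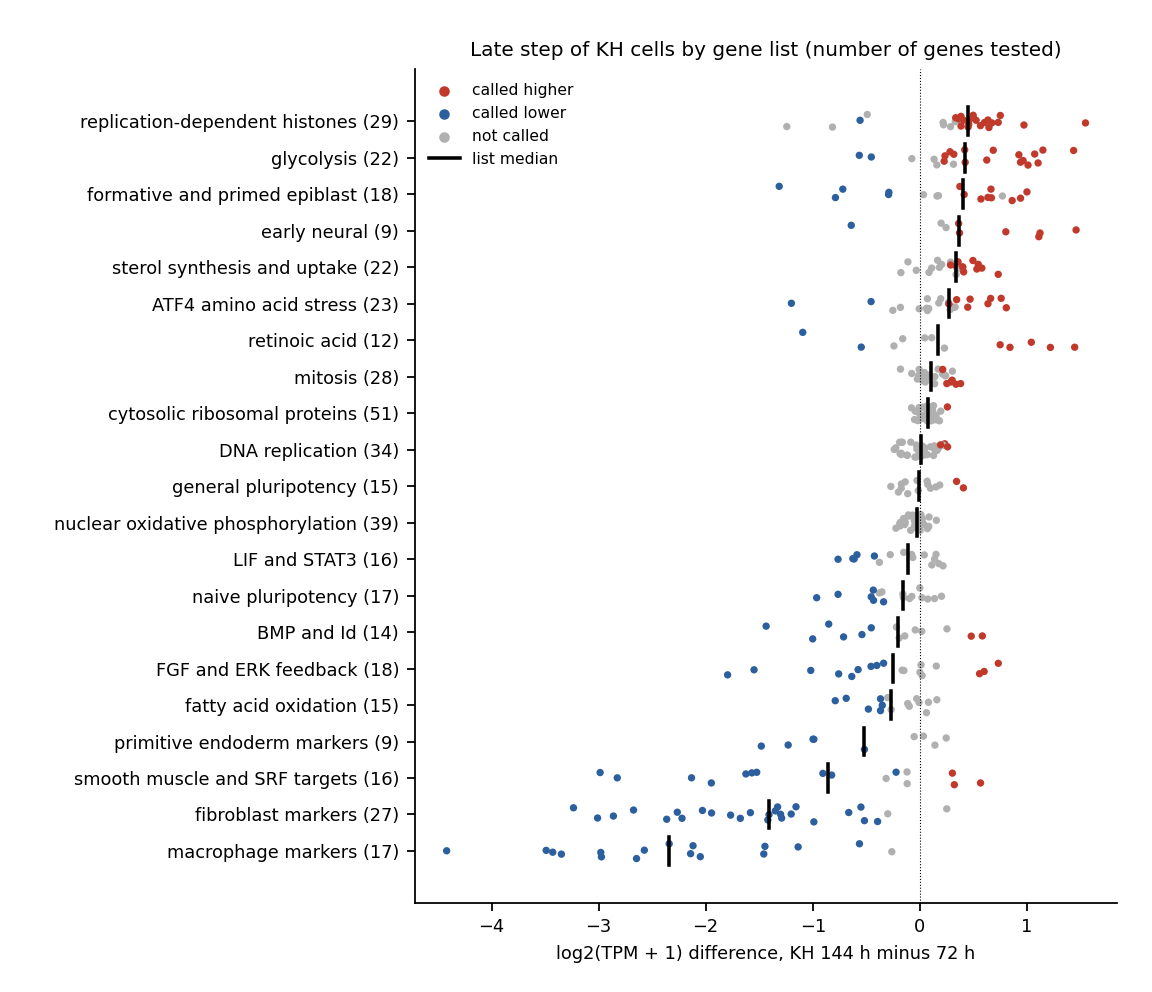
Difference in log2(TPM + 1) between KH cells at 144 and 72 h for each tested gene (points) of 21 gene lists, with the list median as a bar and calls at an adjusted p under 0.05 in colour. Macrophage (-2.34) and fibroblast (-1.41) markers have the lowest medians, glycolysis (0.42) and histones (0.45) the highest, and ribosomal proteins (0.08) and oxidative phosphorylation (-0.03) lie close to 0.

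Several signalling genes were lower at 144 h, some of them after a higher level at 72 h than at 0 h. In FGF and ERK feedback, 9 of 18 genes were lower and 3 higher. Fos, an immediate early gene, was at 31.3 and 38.1 TPM at 0 h, 74.9 and 72.5 TPM at 72 h and 19.4 and 21.7 TPM at 144 h (-1.79 ± 0.09, adjusted p = 1.1e-06). Egr1, another immediate early gene, went from 106 and 99.97 TPM to 33.4 and 35.8 TPM (-1.55 ± 0.10), and Ier3 and the ERK feedback inhibitor Spry1 decreased by 1.02 ± 0.09 and 0.76 ± 0.11. The higher genes were the receptor Fgfr2 (0.73 ± 0.10) and the feedback inhibitors Spry4 (0.60 ± 0.08) and Dusp5 (0.56 ± 0.08). Immediate early genes also respond to handling of cells during collection, which was not measured.

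In the BMP pathway 6 of 14 genes were lower and 2 higher. The ligand Bmp4 was at 19.6 and 24.7 TPM at 0 h, 49.1 and 45.0 TPM at 72 h and 15.5 and 18.1 TPM at 144 h (-1.43 ± 0.11). The target Id3 went from 56.8 and 53.4 TPM to 26.7 and 27.4 TPM (-1.0 ± 0.07) and the inhibitory Smad7 decreased by 0.85 ± 0.08, whereas the targets Id1 (0.48 ± 0.09) and Id2 (0.58 ± 0.13) were the higher ones. Id1 was not called without KH 72 h replicate 2 (0.37, adjusted p = 0.053), nor Id2 without KH 144 h replicate 2 (0.48, adjusted p = 0.094) or KH 72 h replicate 1 (0.52, adjusted p = 0.09).

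LIF and STAT3 genes had 5 of 16 lower and none higher, among them Junb (-0.62), the kinase gene Pim3 (-0.61) and Gbx2 (-0.59), beside Socs3. In the Wnt list, Lef1 rose (0.57 ± 0.09) while the feedback gene Axin2, at 23.8 and 20.3 TPM and then 14.4 and 12.5 TPM, fell by 0.67 ± 0.10. In all, 1 of 15 members was higher and 2 lower, and rescaling called 5 higher. The shares of 1 and 2 lie near the 7.14% and 15.3% called over all genes.

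Germline genes under promoter methylation had 4 of 14 higher and 3 lower. Beside Stra8, the synaptonemal protein gene Sycp3 rose from 5.70 and 6.52 TPM to 10.6 and 10.9 TPM (0.72 ± 0.13). Rhox5, an X-linked homeobox gene, went from 122 and 120 TPM at 0 h through 33.0 and 35.5 TPM at 72 h to 7.95 and 5.79 TPM at 144 h (-2.17 ± 0.13), so its level was lower at each time point. Of 18 genes of the 2-cell-like state 2 passed the filter, Zscan4e and Zscan4f, and both were called higher. At 72 h Zscan4e was at 0.213 and 0.152 TPM and Zscan4f at 0.216 and 0.305 TPM. Both thus reached the filter only through the 144 h libraries, which fixed the direction, so nothing is read from this count. Among 23 imprinted genes 8 were higher and 1 lower. Phlda2, a maternally expressed growth regulator, rose from 30.3 and 26.8 TPM to 76.8 and 78.0 TPM (1.41 ± 0.12) and Peg3, a late-onset gene, by 0.84 ± 0.11, while H19 was the lower one (-0.67 ± 0.12). Without any 1 of the 4 libraries, 2 germline and 2 to 4 imprinted genes were called higher.

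Enzymes of DNA methylation showed small differences. Dnmt1 (0.02 ± 0.06), Tet1 (0.02 ± 0.12), Tet2 (-0.14 ± 0.15) and Tet3 (0.17 ± 0.11) were not called. Dnmt3b went from 181 and 173 TPM to 142 and 147 TPM (-0.29 ± 0.06, adjusted p = 0.0094) and its cofactor Dnmt3l from 442 and 429 TPM to 354 and 358 TPM (-0.29 ± 0.05). Dnmt3a was at 62.7 and 59.1 TPM and then at 76.3 and 143.6 TPM. Its 144 h replicates thus differed by more than the group means did, and the difference of 0.77 ± 0.28 was not called (adjusted p = 0.078). It was called without KH 144 h replicate 1 (1.22, adjusted p = 0.016), with the replicate number as a block (adjusted p = 0.035) and in the fit of only the KH libraries (adjusted p = 0.038). Dnmt3b was not called without KH 144 h replicate 1 or KH 72 h replicate 1 (-0.27 and -0.26, adjusted p = 0.078 and 0.088), nor Dnmt3l without KH 72 h replicate 1 (-0.27, adjusted p = 0.051).

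Antigen presentation and interferon genes had 6 of 17 lower and 1 higher, against 15.3% and 7.14% of all genes. B2m, the light chain of MHC class I, was at 42.9 and 42.6 TPM and then at 9.94 and 15.3 TPM (-1.71 ± 0.22). Fibroblasts and macrophages express B2m too. The count of lower genes was 2 to 4 without any 1 of the 4 libraries.

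The same step in DNMT3ABKO cells was measured in separate libraries. There 1076 genes were higher (6.99%) and 2774 lower (18%), 3850 in all, and 2179 to 2339 without any 1 of those 4 libraries. Over the 15401 genes the late steps of the lines correlated with r of 0.65, a description in which genes are not independent. Of the 496 lower late-onset genes of KH cells, 484 (97.6%) were also below 0 in DNMT3ABKO cells and 371 were called lower there. Of the 236 higher ones, 201 (85.2%) were above 0, 126 were called higher and 12 were called lower. Among all genes called in KH cells, 94.3% of the 2360 lower and 79.9% of the 1100 higher shared the sign. The median DNMT3ABKO step over all tested genes was -0.07. The median step of the higher late-onset genes was 0.58 in KH and 0.36 in DNMT3ABKO cells, and that of the lower late-onset genes -0.66 and -0.55. Since KH values chose the genes, medians nearer to 0 in the other line are not read as a difference.

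The test of the line difference itself called 412 genes (2.68%), of which 157 had a higher and 255 a lower step in DNMT3ABKO cells. It called 109 to 173 genes when any 1 of the 8 libraries was left out, 207 with the replicate number as a block and 824 with rescaling, so the values below are chiefly those of genes called without each of the 8 libraries. Among late-onset genes the test called 32 of the 236 higher (29 with the lower step in DNMT3ABKO cells) and 27 of the 496 lower (24 with the higher step there). The same KH values chose the late-onset genes and enter the line difference, so these counts, their directions and the p-values of single late-onset genes are given as a description and nothing is read from them against the 2.68% of all genes. Prtg showed the widest gap of the named genes, going from 9.52 and 9.05 TPM to 3.48 and 3.47 TPM in DNMT3ABKO cells while it rose in KH cells (a line difference of -2.47, adjusted p = 0.0003). Hoxb1 stayed at 0.0923 to 0.42 TPM in the 4 DNMT3ABKO libraries (-1.73, adjusted p = 0.0021) and Olig3 at 0.178 to 0.496 TPM (-1.40, adjusted p = 0.0048).

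Some further neural, epiblast and signalling genes also had lower steps in DNMT3ABKO cells. Among the 9 early neural genes the line difference was called in 3, and in DNMT3ABKO cells 4 were called higher and 2 lower. Among the 18 formative and primed epiblast genes it was called in 7, with 3 higher and 9 lower there. Sox1 was at 6.59 and 6.12 TPM at 72 h and at 4.54 and 4.95 TPM at 144 h there (a line difference of -1.48, adjusted p = 0.0012), against the rise in KH cells. Meis2 went from 3.58 and 3.21 TPM to 1.82 and 2.25 TPM (-1.76, adjusted p = 0.0039), Sall2 from 3.33 and 3.01 TPM to 2.01 and 2.57 TPM (-1.35, adjusted p = 0.002), and Lef1 from 31.6 and 29.4 TPM to 15.2 and 16.8 TPM (-1.46, adjusted p = 0.00095). Car4, a carbonic anhydrase gene, was at 8.27 and 9.33 TPM and then at 2.7 and 2.59 TPM, while in KH cells it went from 7.5 and 7.17 TPM to 13.6 and 11 TPM (-2.09, adjusted p = 0.00072). Pax6, by contrast, rose in DNMT3ABKO cells by 1.29, and its line difference was not called (-0.17, 95% interval -0.69 to 0.35, adjusted p = 0.81). Hes5 (0.66), Nes (0.665) and Zic2 (0.67) were also called higher there, and their line differences were not called.

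In the naive list the line difference was called in 5 of 17 genes. Of these, Esrrb and Prdm14 were followed with each library left out, and the others were not. Esrrb went from 243.5 and 245.6 TPM to 350 and 329 TPM in DNMT3ABKO cells (0.47, adjusted p = 0.0032). Its line difference of 0.63 (adjusted p = 0.029), like that of 1.00 for Prdm14 (adjusted p = 0.016), was called in only 1 of the 8 fits that left a library out, with values for Esrrb of 0.49 to 0.76 and for Prdm14 of 0.89 to 1.1. For Nanog the line difference of 0.62 was not called (adjusted p = 0.076).

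Glycolysis genes were called higher in both lines, in DNMT3ABKO cells 11 of the 22 with 5 lower, and the line difference was called in 7. The step of Slc2a1 was 1.33 there against 1.44 in KH cells (line difference -0.10, adjusted p = 0.66). Ldha went from 196 and 195 TPM to 253.5 and 257 TPM, a line difference of -0.69 (adjusted p = 0.0053). Of the sterol and fatty acid genes, Cyp51 (-0.17) and Scd2 (-0.05) were not called in DNMT3ABKO cells; their line differences were called in the fit of all libraries but in 0 of the 8 fits that left 1 out. Histone genes were higher there in 24 of 29 cases, with no line difference called.

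Genes of the 2-cell-like state stood much higher in DNMT3ABKO cells. The 18 listed genes summed to 229 and 230 TPM at 72 h and to 1085 and 1135 TPM at 144 h, against 1.32 and 1.68 TPM and then 13.8 and 11.3 TPM in KH cells. Zscan4f went from 47.5 and 45.7 TPM to 221.5 and 232 TPM there (2.26, adjusted p = 2.2e-06). Reads may be split among these paralogs, and the line differences of Zscan4e (0.97) and Zscan4f (0.78), called in 1 and 0 of the 8 fits that left a library out, turned to -0.56 and -0.58 with a pseudocount of 0.1 TPM.

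Macrophage markers fell less far in DNMT3ABKO cells, from a lower start. Their sum went from 188 and 192 TPM at 72 h to 64.7 and 62.2 TPM at 144 h, 14 of 17 were lower, and the line difference was called in 11. Lyz2 went from 63.1 and 66.6 TPM to 8.85 and 9.05 TPM, a line difference of 1.69 (adjusted p = 0.0003), and Gpnmb from 9.72 and 10.1 TPM to 2.58 TPM in both libraries (1.62, adjusted p = 0.00069). For fibroblast markers 25 of 27 were lower in each line and the line difference was called in 1, Col5a2, the chain of type V collagen, at 40.2 and 41 TPM and then 4.35 and 3.99 TPM in KH cells (0.79, adjusted p = 0.0072).

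**Figure D5:**
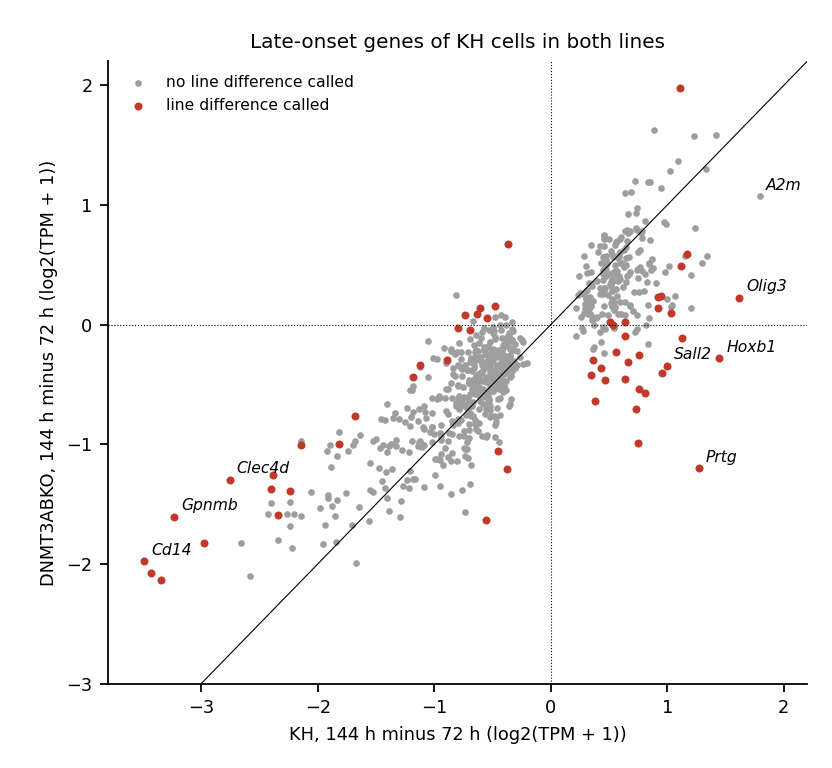
Difference in log2(TPM + 1) between 144 and 72 h in KH cells (x axis, the values that chose the genes) and DNMT3ABKO cells (y axis) for the 732 late-onset genes, with the line of equal change and genes with a called line difference in red. Most points share a sign, and Prtg, Hoxb1 and Sall2 lie above 0 in KH cells and below 0 in DNMT3ABKO cells.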

How the data were processed

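RNA was sequenced in 12 libraries, 2 for each of KH and DNMT3ABKO cells at 0, 72 and 144 h of INK128, and groups were taken from the sample titles. The authors deposited 1 table of TPM per library. The submitters' processing notes name cutadapt 2.4, STAR 2.7.3a, StringTie 2.0 and mm10, and the methods give other versions of STAR and StringTie. Each library sums to 1000000 TPM and read depth is unknown. The count test described in the methods was not used, since TPM are not counts.

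Rows that repeated a gene identifier (9 to 16 per library) were summed over 54446 identifiers, of which 54409 matched GENCODE M21. Values were analysed as log2(TPM + 1), for genes with a mean of 1 TPM or more over the KH libraries at 72 and 144 h. All 12 libraries were fitted by group in limma 3.58.1 (R 4.3.3) with an intensity trend and Benjamini-Hochberg adjustment over the 15401 genes, and an adjusted p under 0.05 was called. The fit was tested on simulated data. Contrasts were the KH late step, its difference from the early step, the DNMT3ABKO late step and the difference between lines. Tables and figures used Python 3.11.15, pandas 2.3.3, NumPy 2.4.6 and matplotlib 3.10.9.

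Named genes were the 10 highest and 10 lowest late steps among all called and among late-onset genes (predicted genes, pseudogenes and small RNA genes left out), up to 4 called members in each direction of each gene list, and a set of pluripotency, methylation, growth and marker genes. A selection of these is printed, and a few genes that met the rule are not reported here. Members and lists were chosen with earlier results of these data known. The settings varied were the pseudocount (0.1 TPM), the filter (none), median-ratio rescaling, fits of the KH libraries only, the replicate number as a block, a minimum change of 1 and leaving out each library. Promoters on chromosome 18 were left out.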

Additional observations from a re-analysis of the deposited data

Results flagged for a closer look

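The following genes had a late step that differed between DNMT3ABKO and KH cells (the line difference, DNMT3ABKO minus KH on the log2(TPM + 1) scale, at an adjusted p under 0.05 in limma). There were 43 of them, of which 16 were called without each of the 8 libraries of both steps in turn, 27 were not called without at least 1 of them, and 31 were called with the replicate number as a block.

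The 16 genes called without each library were Prtg (-2.473), Car4 (-2.094), Meis2 (-1.756), Hoxb1 (-1.731), Sox1 (-1.481), Lef1 (-1.46), Olig3 (-1.396), Sall2 (-1.349) and Ldha (-0.6888), with the lower step in DNMT3ABKO cells, and Lyz2 (1.694), Gpnmb (1.622), Cd14 (1.511), Clec4d (1.456), Tyrobp (1.35), Mpeg1 (1.149) and Col5a2 (0.7915), with the higher one. The 7 genes of the second set fell in both lines and fell less in DNMT3ABKO cells, where summed macrophage markers had started at 188 and 192 TPM instead of 290 and 282 TPM. The part of that lower start in these differences was not tested.

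Among the 27 others, developmental and signalling genes were Greb1l (-1.186), Id2 (-0.9434), Sox3 (-0.7025), Rxra (0.599), Id3 (0.6194), Esrrb (0.6284) and Prdm14 (0.9986). Metabolic and hypoxia-related genes were Egln3 (-1.355), Ndufa4l2 (-1.046), Cyp51 (-0.9065), Scd2 (-0.7718), Pfkm (-0.7561), Pgm2 (-0.577), Tpi1 (-0.5649), Psat1 (-0.5055) and the carnitine carrier Slc25a20 (0.635). Egln3 was called without 7 of the 8 libraries.

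Markers of other cells were Ctss (1.21), Ptx3 (1.028), C1qa (0.9957) and Acta2 (0.8604), and genes of the 2-cell-like state were Zscan4e (0.9672) and Zscan4f (0.7808), which turned negative with a pseudocount of 0.1 TPM. The remaining genes were Tet3 (-0.8185), Dnmt3b (-0.6155), Ccnd1 (-0.5947), Ctsb (0.5561) and Tfeb (0.4872). Dnmt3b is targeted in the DNMT3ABKO line, so its value there describes the reads left from a disrupted gene.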

How the results depend on the processing

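Rescaling by median ratios gave 1899 higher genes instead of 1100, 491 higher late-onset genes instead of 236 and 824 line differences instead of 412, and a fit of only the 4 KH libraries gave 1892 higher genes. Without a filter on low values there were 1349 line differences. A minimum change of 1 left 77 higher and 374 lower genes, 1730 step differences, 28 higher and 120 lower late-onset genes, 481 genes of the DNMT3ABKO late step and 124 line differences. Leaving out 1 library at a time, which leaves a single sample assumed to vary like the other groups, gave 481 to 581 higher and 1162 to 1379 lower genes, 2007 to 4087 step differences, 75 to 216 higher and 176 to 487 lower late-onset genes, 2179 to 2339 genes of the DNMT3ABKO late step and 109 to 173 line differences. The cause was not tested beyond the smaller number of samples. The replicate block gave 900 higher and 2082 lower genes, 3953 step differences, 188 and 425 late-onset genes, 3401 genes of the DNMT3ABKO late step and 207 line differences. The replicate numbers were not taken to pair the samples, since the deviations of equally numbered KH libraries correlated at 0.039 (72 and 144 h), -0.069 (0 and 72 h) and 0.084 (0 and 144 h), although the reporting summary says in general that time points of a biological replicate were handled side by side; the labels do not tie the numbers to this. Of 131 named late steps none changed direction while called, and 122 to 126 kept their side of the threshold without 1 library and 127 to 130 under the other settings. With a pseudocount of 0.1 TPM the line differences of Zscan4e and Zscan4f turned to -0.5629 and -0.5849. Medians of lists near 0 changed sign with rescaling. TPM do not show what read depth limits.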
